A study of Mus musculus with 18 samples.

Results

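The effect of circulating immune complexes (IC) that was common to the 3 macrophage subsets of the mouse synovium was measured by comparing all 9 libraries of IC-injected mice with all 9 libraries of untreated mice in 1 model, with a term for the subset and a term for the treatment. These 18 libraries were all of the 18 in the series. The mice were C57BL/6 wild-type (WT) animals, of C57BL/6J background in the methods of the study, and were 8 to 20 weeks old. Bulk RNA was sequenced from synovial macrophages sorted as LYVE1+CX3CR1+ cells, which were gated as MHCII- and Ly6C-, as MHCII+CD11c- cells and as MHCII+CD11c+ cells, with 3 untreated and 3 IC libraries of each subset. A library stands for 3 mice, whose 6 legs were pooled before the sort. The IC mice had received, 8 h earlier and through the tail vein, 40 µg of fluorescently labelled ovalbumin (OVA) that had been incubated with 150 µg of a rabbit anti-OVA antibody. Whether the untreated mice received a vehicle is not given in the sources used here, and libraries of mice given OVA or antibody alone were not analysed, so that the complex, its components and the injection cannot be told apart. The drawing of the study shows each pool of 6 legs sorted into the 3 subsets. Same-numbered libraries of 1 treatment may therefore come from the same pool of mice, which the labels do not say. If they do, the 9 libraries of a treatment stand for 3 pools, and the p-values of single genes, which treat the libraries as separate samples, measure in part the spread within a pool.

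IC form when antibodies bind a soluble antigen, and macrophages detect the bound IgG through Fcγ receptors. The activating receptors signal through the common γ chain encoded by Fcer1g, and the inhibitory receptor FcγRIIb carries its own inhibitory motif. Engagement of these receptors leads to uptake of the complex into lysosomes and can lead to the secretion of cytokines and chemokines. Macrophages of the synovium lie in its lining and around the capillaries beneath it, where they meet material that leaves the blood.

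The mean response was broad and mostly shared in direction. Of 10550 genes with enough counts to test, 604 passed an adjusted p of 0.05 in edgeR's quasi-likelihood test of the treatment term (5.73%), and these are referred to as called. Called genes were nearly balanced, with 314 higher (2.98%) and 290 lower (2.75%) after IC, and their median log2 fold changes were 0.66 and −0.67, against −0.01 over all genes tested. A change of at least 1 on the log2 scale was reached by 78 called genes upward and 66 downward. The fitted change had the same sign in the 3 subsets for 588 of the 604 (97.4%), against 37.5% of all genes tested, a share that the additive test itself favours. A stricter look at the libraries asked whether the 3 IC libraries of a subset lay beyond its 3 untreated libraries in each of the 3 subsets. This held upward for 68 called genes and downward for 59, against 0.682% and 0.597% of all genes tested. Such a separation too is favoured by the treatment test that chose the called genes from the same libraries. Most of the common response was not called within any 1 subset: 432 of the 604 genes were called by no contrast of a single subset, 128 by 1, 36 by 2 and 8 by all 3. The 8 were Abca9, Pdia6, Ms4a6c, Ms4a6d, Hspa5, Fcgr1, Bst1 and Msr1.

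**Figure D1:**
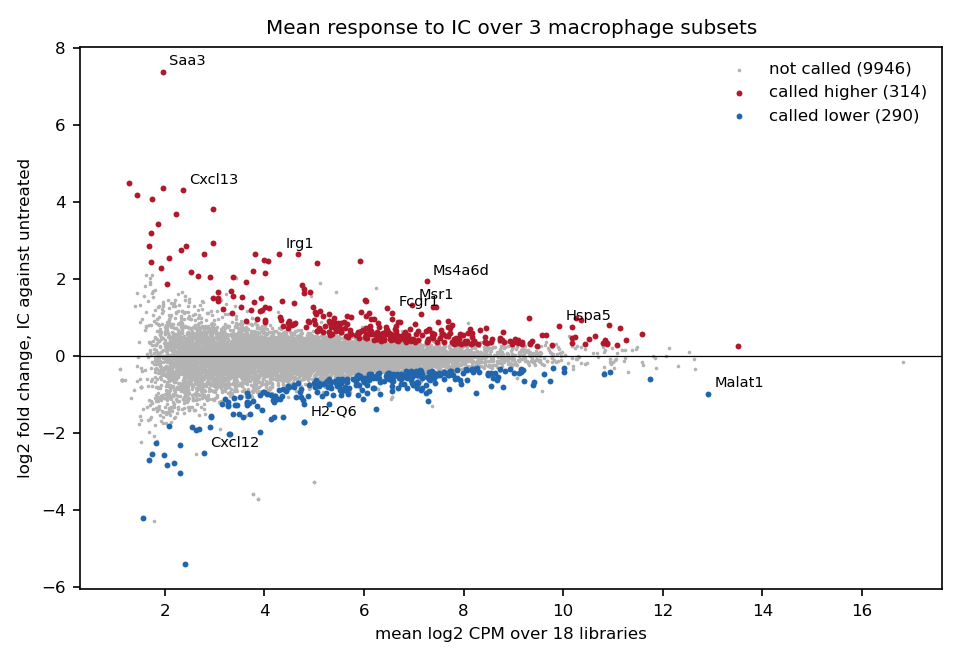
Mean log2 CPM over the 18 libraries (horizontal) and log2 fold change of IC against untreated from the additive fit (vertical) for 10550 genes. Red points are the 314 genes called higher, blue points the 290 called lower and grey points the genes not called; Ms4a6d stands at a log2 change of 1.95 and Malat1 at a log2 change of −0.97, and fitted changes of genes at 0 in a group, such as Saa3, have no defined size.

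Depth and pooling limit the precision. Library totals were 837439 to 2172358 counts in the untreated and 245903 to 2047260 in the IC group, and the lowest belonged to 2 MHCII+CD11c- libraries of IC mice, with 245903 and 381217 counts. Without those 2 libraries 675 genes were called, 389 higher and 286 lower. Rn45s, a ribosomal RNA transcript, took 7.92 to 16.3% of the counts, and without it 604 genes were called. When the 3 libraries that share a treatment and a number were averaged, leaving 3 values against 3, limma called 11 genes, namely Ly6i, Ly6a, Fpr1, Trem1, Lrg1, Ms4a4c, Ms4a6d, Bst1, Cxcl13 and Clec4e upward and Hepacam2 downward. In that analysis 1346 of the 10550 genes had an unadjusted p under 0.05, of which 514 were among the 604. The 604 genes kept the sign of their change, which averages of the same counts favour, and the smallest adjusted p was 0.0481. Levels of genes are given in CPM, counts scaled by the library total and by edgeR's TMM factor. In bulk RNA a smaller number of cells of 1 type and less RNA per cell cannot be told apart, which applies to each result given here.

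Ms4a6d had the smallest p of all genes. It encodes a 4-pass membrane protein of the MS4A family (chromosome 19 from 11586606 to 11604804, mm10). In untreated mice Ms4a6d stood at 103, 116 and 115 CPM in LYVE1+CX3CR1+, 63.9, 67.2 and 77.6 CPM in MHCII+CD11c- cells and 58.3, 59.8 and 59.3 CPM in MHCII+CD11c+ cells. After IC Ms4a6d stood at 494, 445 and 309.7 CPM, 350.4, 395 and 242 CPM and 249.9, 215 and 149 CPM in the same order. Each of the 9 IC libraries lay above each of the 9 untreated ones, and the mean response was log2 fold change 1.95, SE 0.12, adjusted p = 4.59e-14 in edgeR's quasi-likelihood test, which also gives the values of the genes named from here on. The neighbouring family member Ms4a6c (chromosome 19 from 11469353 to 11487182) ranged from 70.4 to 145 CPM (median 115) in the 9 untreated libraries and from 196 to 395 CPM (median 237) in the 9 IC libraries. Its IC libraries too lay above all untreated ones (log2 fold change 1.27, SE 0.12, adjusted p = 3.48e-09). Ms4a6b and Ms4a4c rose as well, by 0.88 log2 units (adjusted p = 8.28e-05) and 1.92 (adjusted p = 0.00024), so that 4 of the 8 Ms4a genes tested were called (50.0%), all higher, and the median log2 fold change of the 8 was 0.85. The treatment of reads that match several genes is not given in the sources used here, so the split of counts among the related Ms4a6 genes is uncertain.

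Several transcripts of the receptors that bind IgG rose, with 4 of 7 genes called (57.1%), all higher, and a median log2 fold change of 0.41. Fcgr1, the high-affinity receptor FcγRI (chromosome 3 from 96282909 to 96293969), was the clearest. In untreated mice Fcgr1 stood at 57.3, 58.9 and 60.3 CPM in LYVE1+CX3CR1+, 65.1, 89.2 and 89.9 CPM in MHCII+CD11c- cells and 51.5, 48 and 55 CPM in MHCII+CD11c+ cells. After IC Fcgr1 stood at 119, 134 and 99.4 CPM, 193, 245 and 133 CPM and 133, 108 and 129.8 CPM in the same order. No untreated library reached the lowest IC library, and the log2 fold change was 0.99, 1.18 and 1.25 in the 3 subsets in the same order (log2 fold change 1.14, SE 0.12, adjusted p = 9.88e-08 over the subsets). Fcgr4, an activating receptor, was low before treatment, with 0 to 19.4 CPM (median 7.23) in the 9 untreated libraries and from 1.92 to 36.6 CPM (median 24) in the 9 IC libraries, and the IC libraries lay above the untreated ones within each subset (log2 fold change 1.57, SE 0.34, adjusted p = 0.00287). In LYVE1+CX3CR1+ macrophages that separation rested on 0, 3 and 1 counts before and 7, 8 and 4 counts after IC, near the floor of 3 counts. The common γ chain Fcer1g ranged from 197 to 293 CPM (median 254) in the 9 untreated libraries and from 289.9 to 390.1 CPM (median 338) in the 9 IC libraries. Its rise was small but without overlap in each subset (log2 fold change 0.41, SE 0.086, adjusted p = 0.00244). The inhibitory receptor Fcgr2b rose from a median of 388 CPM (228 to 463 over 9 libraries) to 569 CPM (407 to 696), with log2 fold changes of 1.05, 0.35 and 0.50 in LYVE1+CX3CR1+, MHCII+CD11c- and MHCII+CD11c+ macrophages in the fit with 6 groups (log2 fold change 0.64, SE 0.10, adjusted p = 7.58e-05 over the subsets). The activating receptor Fcgr3 was not called, with a median of 462 CPM over the 9 libraries of either treatment (log2 fold change −0.072, SE 0.085, adjusted p = 0.737). The Fcgr genes resemble each other in sequence and carry the limit given for the Ms4a6 genes.

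Receptors for other ligands changed in both directions. Of 35 scavenger and uptake receptors tested, 8 were called higher and 4 lower, with a median log2 change of 0.10. Msr1 encodes the class A scavenger receptor, which takes up modified lipoproteins and bacterial products (chromosome 8 from 39543232 to 39642750). In untreated mice Msr1 stood at 125, 137 and 139 CPM in LYVE1+CX3CR1+, 61.6, 99 and 81.7 CPM in MHCII+CD11c- cells and 46.2, 44.7 and 39.1 CPM in MHCII+CD11c+ cells. After IC Msr1 stood at 257, 253 and 284 CPM, 225, 249 and 203 CPM and 179, 94.4 and 132 CPM in the same order. The groups did not overlap within any subset, while the highest untreated LYVE1+CX3CR1+ library exceeded 2 of the 3 IC libraries of MHCII+CD11c+ macrophages (log2 fold change 1.33, SE 0.13, adjusted p = 3.48e-09). Clec4e, the Mincle receptor for microbial glycolipids and products of dead cells, went from a median of 17.1 CPM (4.04 to 33 over 9 libraries) to 60.2 CPM (14.8 to 102) and likewise did not overlap in any subset (log2 fold change 1.64, SE 0.20, adjusted p = 1.36e-06). Trem1, a receptor that amplifies inflammatory signals in myeloid cells, rose from a median of 11.6 CPM (0 to 33.7 over 9 libraries) to 37.7 CPM (3.36 to 115) with the same separation (log2 fold change 2.18, SE 0.31, adjusted p = 2.56e-05). Havcr2, which encodes TIM-3, rose by 0.98 log2 units (adjusted p = 0.0023), the complement receptor gene Vsig4 by 0.74 (adjusted p = 0.00247) and the mannose receptor gene Mrc1 by 0.36 (adjusted p = 0.0171). The call of Mrc1 was lost in 2 of the 18 fits that left out 1 library. The lectin genes Cd209a, Mgl2 and Cd209f fell, with log2 fold changes of −1.56, −0.81 and −0.60 (adjusted p = 6.1e-06, 0.00238 and 0.00967). Cd209a is also counted among the markers of dendritic cells. It ranged from 0 to 277 CPM (median 59.9) in the 9 untreated libraries and from 0 to 107 CPM (median 20.03) in the 9 IC libraries, and the groups overlapped in LYVE1+CX3CR1+ macrophages, where it was near 0.

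**Figure D2:**
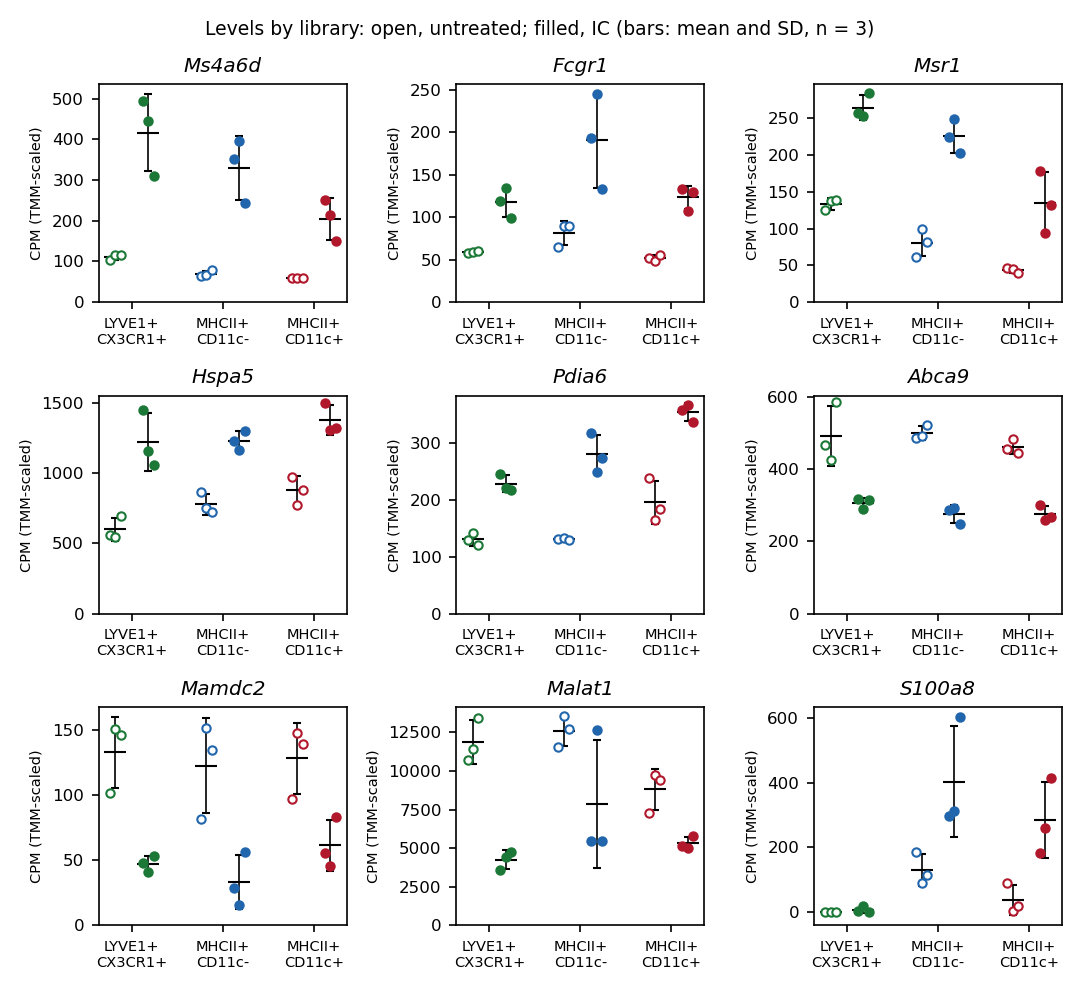
TMM-scaled CPM of 9 genes in each library (vertical) by subset (horizontal); open circles are untreated, filled circles IC, and bars give the mean and SD of 3 libraries. Ms4a6d, Fcgr1 and Hspa5 show every IC library above every untreated one, Mamdc2 falls without overlap in each subset, and S100a8 differs between subsets in its starting level as well as after IC.

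Some chaperones of the endoplasmic reticulum (ER) rose and none fell. These proteins fold secreted and membrane proteins, and their genes are known targets of the unfolded protein response. Of 31 ER chaperones and folding enzymes tested, 12 were called higher and none lower (38.7% called), and the median log2 change was 0.31, against −0.01 over all genes. The summed level of the list was 5829 to 6202 CPM in untreated and 8098 to 9146 CPM in IC libraries of LYVE1+CX3CR1+ macrophages. It was 6128 to 6860 CPM and 7478 to 9076 CPM in MHCII+CD11c- macrophages, and 6922 to 8428 CPM and 9310 to 10610 CPM in MHCII+CD11c+ macrophages, without overlap in any subset.

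Hspa5 encodes BiP, the main HSP70 chaperone of the ER lumen (chromosome 2 from 34772090 to 34776529). In untreated mice Hspa5 stood at 563, 547 and 694 CPM in LYVE1+CX3CR1+, 866, 751 and 727 CPM in MHCII+CD11c- cells and 978, 776 and 885 CPM in MHCII+CD11c+ cells. After IC Hspa5 stood at 1455, 1159 and 1059 CPM, 1229, 1167 and 1303 CPM and 1504, 1313 and 1321 CPM in the same order. All 9 IC libraries exceeded all 9 untreated ones (log2 fold change 0.78, SE 0.089, adjusted p = 2.86e-07). The end of Hspa5 overlaps the annotation of Rabepk. Pdia6, a disulfide isomerase that works with BiP (chromosome 12 from 17266589 to 17284785), had the largest change of the list. In untreated mice Pdia6 stood at 129, 142 and 119.5 CPM in LYVE1+CX3CR1+, 131, 133 and 129.7 CPM in MHCII+CD11c- cells and 237, 165 and 183 CPM in MHCII+CD11c+ cells. After IC Pdia6 stood at 245, 221 and 217 CPM, 316, 249 and 273 CPM and 358, 367 and 336 CPM in the same order. The groups did not overlap within any subset (log2 fold change 0.91, SE 0.10, adjusted p = 6.87e-08). Hyou1, a nucleotide exchange factor of BiP, rose from a median of 137 CPM (108 to 218 over 9 libraries) to 241 CPM (168 to 299) (log2 fold change 0.69, SE 0.10, adjusted p = 3.22e-05). Calr, the lectin chaperone calreticulin, rose from a median of 992 CPM (910.2 to 1153 over 9 libraries) to 1477 CPM (1028 to 1647), and the ranges of each subset were apart although the change was modest (log2 fold change 0.51, SE 0.082, adjusted p = 7.92e-05). The other members were called with log2 fold changes of 0.63 for the BiP cofactor Dnajb11, 0.60 for the isomerase Pdia4, 0.58 for Sdf2l1, 0.56 for the HSP90 paralog Hsp90b1, 0.55 for Manf, 0.45 for Dnajc10, 0.39 for the isomerase P4hb and 0.35 for Pdia3. The call of Dnajc10 was lost in 2 of the 18 fits that left out 1 library.

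ER stress sensors and their transcription factors were called about as often as all genes tested. Of the 17 on this list, 1 was called (5.88%, against 5.73% of all genes tested). It was Nupr1, a stress-induced nuclear protein, at a log2 change of 0.85 (adjusted p = 0.00338), and the median log2 change of the list was 0.055. Atf4, a transcription factor of the integrated stress response, ranged from 129 to 371 CPM (median 235) in the 9 untreated libraries and from 198 to 383 CPM (median 288) in the 9 IC libraries (log2 fold change 0.14, SE 0.12, adjusted p = 0.614). Ddit3, which encodes CHOP, a factor tied to cell death under ER stress, ranged from 10.8 to 44.9 CPM (median 22.1) in the 9 untreated libraries and from 3.77 to 30.04 CPM (median 13.4) in the 9 IC libraries (log2 fold change −0.42, SE 0.28, adjusted p = 0.474). Xbp1, a transcription factor of the response, was not called (log2 fold change 0.055, adjusted p = 0.865), and the counts per gene do not show the splicing that activates it. Among 45 genes of ER translocation, export and degradation, Rpn1 alone was called, a subunit of the oligosaccharyltransferase, at a log2 change of 0.57 (adjusted p = 0.000535), and the median log2 change was 0.14. A list of glycan, vesicle coat and Golgi genes gave 2 called of 31 (6.45%), near the share of all genes tested. Both were higher, namely the mannosidase Man2a1 at a log2 change of 0.70 and the solute carrier gene Slc35b1 at a log2 change of 0.64. The median log2 change of these 31 genes was 0.14.

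The proximal promoters of these chaperones are shown because a defined element recurs in them. The ER stress element reads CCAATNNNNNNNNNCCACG, and both strands of the 250 bases before each start site were searched in RefSeq promoter windows of GRCm38.p6, the assembly behind mm10. It was present in 0.13% of the 27025 genes with a window and in 7 of the 24 ER chaperone genes with one. These were 4 of the 10 called genes, Hspa5, Pdia6, Hsp90b1 and Calr, and 3 of the 14 that were not called, Creld2, Dnajc3 and Canx. Creld2 stood at a log2 fold change of 0.46 (adjusted p = 0.273), Dnajc3 at a log2 change of 0.30 (adjusted p = 0.169) and Canx at a log2 change of 0.076 (adjusted p = 0.742). The ER stress element II, ATTGGNCCACG, was in none of the 24. A match is a description of letters and not of binding. The stretches below give the strand of the gene from 5′ to 3′ with the element in capitals, in either orientation, and come from chr2:34772020-34772048 on the plus strand, chr12:17266456-17266544 on the plus strand, chr10:86705510-86705586 on the minus strand, chr8:84847040-84847128 on the minus strand, chr15:88819485-88819573 on the plus strand, chr14:118937792-118937880 on the plus strand and chr11:50325765-50325853 on the minus strand. Hsp90b1 has 2 copies in its window, of which 1 is shown.
Hspa5: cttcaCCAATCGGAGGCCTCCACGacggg
Pdia6: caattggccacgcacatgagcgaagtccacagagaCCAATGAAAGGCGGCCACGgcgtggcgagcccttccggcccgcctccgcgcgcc
Hsp90b1: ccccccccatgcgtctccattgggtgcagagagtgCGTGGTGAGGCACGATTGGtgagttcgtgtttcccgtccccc
Calr: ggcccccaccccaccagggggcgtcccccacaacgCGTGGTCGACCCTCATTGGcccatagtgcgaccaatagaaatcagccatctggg
Creld2: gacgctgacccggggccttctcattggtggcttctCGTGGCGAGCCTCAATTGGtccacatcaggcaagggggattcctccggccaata
Dnajc3: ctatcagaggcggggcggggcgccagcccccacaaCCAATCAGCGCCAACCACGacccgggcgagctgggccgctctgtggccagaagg
Canx: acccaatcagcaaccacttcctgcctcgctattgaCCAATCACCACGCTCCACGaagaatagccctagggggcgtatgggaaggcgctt

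Some cytosolic chaperones rose too. Of 36 cytosolic heat shock chaperones tested, a list that includes their co-chaperones and the mitochondrial chaperonins, 14 were called higher and none lower (38.9%), with a median log2 change of 0.26. Hspa8, the constitutive HSP70 of the cytosol, went from a median of 2671 CPM (1798 to 3065 over 9 libraries) to 3829 CPM (3156 to 4671) without overlap of the 18 libraries (log2 fold change 0.59, SE 0.081, adjusted p = 7.37e-06). Hsp90ab1 and Hsp90aa1, the cytosolic HSP90 proteins, rose by 0.52 log2 units (adjusted p = 0.000115) and 0.49 (adjusted p = 0.00132). The stress-inducible Hspa1b ranged from 904 to 2037 CPM (median 1471) in the 9 untreated libraries and from 2057 to 3625 CPM (median 2528) in the 9 IC libraries and Hspa1a from 1096 to 2381 CPM (median 1912) in the 9 untreated libraries and from 2325 to 4088 CPM (median 2702) in the 9 IC libraries, and both were already abundant in untreated cells. These 2 genes are near-identical and their split is uncertain (log2 fold changes 0.82 and 0.73, adjusted p = 0.0126 and 0.0225). The HSP90 cofactors Ahsa1 and Stip1, the HSP110 gene Hsph1, the HSP40 gene Dnaja1 and the chaperonin subunits Cct3, Cct5 and Cct8 were also called, between 0.35 and 0.75. Hspd1 and Hspe1, the mitochondrial chaperonin pair that is transcribed in opposite directions from a shared promoter, rose by 0.48 log2 units and 0.58 (adjusted p = 0.0227 and 0.0275). Their annotations overlap, and their calls were lost in 3 and 7 of the 18 fits without 1 library.

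A heat shock element of the form GAANNTTCNNGAA was found in the 250 bases before the start of 0.514% of genes and of 3 of the 29 cytosolic chaperone genes with a window, namely Hspd1, Hspe1 and Dnajb6. It is printed for the chaperonin pair, whose starts share it at chr1:55088053-55088082, on the plus strand for Hspe1 and on the minus strand for Hspd1. The 2 overlapping matches are in capitals.
Hspe1: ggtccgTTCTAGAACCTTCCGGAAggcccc
Hspd1: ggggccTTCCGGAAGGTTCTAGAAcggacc

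Several genes of sterol synthesis fell. In resting cells they are driven by the transcription factor SREBP2, and cholesterol or oxysterols hold them down. A sterol regulatory element of 10 bases, searched on both strands of the 250 bases before each start, was in 0.0814% of all genes and in 0 of the 24 genes of the list with a window, which says only that these letters were not found there. Of 34 genes of sterol and fatty acid synthesis tested, 8 were called lower and 1 higher (26.5%), 29 of the 34 had a fitted change below 0, and the median log2 change was −0.37. Idi1 encodes an isomerase early in the isoprenoid pathway (chromosome 13 from 8885606 to 8892396). In untreated mice Idi1 stood at 59.3, 42.6 and 49.5 CPM in LYVE1+CX3CR1+, 22.1, 26.9 and 46 CPM in MHCII+CD11c- cells and 47.8, 38.1 and 39.1 CPM in MHCII+CD11c+ cells. After IC Idi1 stood at 8.46, 15.8 and 26.4 CPM, 15.7, 7.53 and 25 CPM and 29.3, 14.9 and 22.5 CPM in the same order. The groups overlapped in MHCII+CD11c- macrophages and were apart in the others (log2 fold change −1.15, SE 0.23, adjusted p = 0.00122). Srebf2, which encodes SREBP2, ranged from 145 to 288 CPM (median 205) in the 9 untreated libraries and from 64 to 223 CPM (median 144) in the 9 IC libraries (log2 fold change −0.61, SE 0.13, adjusted p = 0.00275). The pathway enzymes Fdft1, Msmo1, Cyp51, Fdps and Hmgcs1 fell, with log2 fold changes of −1.02, −0.95, −0.83, −0.77 and −0.67. The calls of Fdft1, whose annotation overlaps that of Ctsb, and of Hmgcs1 were lost in 6 and 9 of the 18 fits without 1 library. Insig1, which retains SREBP in the ER, was not called at a log2 change of −0.38 (adjusted p = 0.12).

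Mylip, the 1 gene of that list called higher, encodes the ubiquitin ligase IDOL and is a target of the liver X receptors (LXR). It went from a median of 74.1 CPM (47.7 to 106 over 9 libraries) to 126 CPM (92.6 to 175), without overlap in any subset (log2 fold change 0.78, SE 0.13, adjusted p = 9.24e-05). Nr1h3, which encodes LXRα, rose from a median of 16.3 CPM (1.45 to 31.2 over 9 libraries) to 49.4 CPM (26.7 to 151) (log2 fold change 1.74, SE 0.30, adjusted p = 0.000454). Its annotation overlaps that of Acp2, an acid phosphatase gene that also rose, by 0.58 log2 units (adjusted p = 0.00393), so the counts of either may hold reads of the other. Of 22 LXR targets and lipid transport genes, 5 were called higher, Mylip included, and 2 lower (31.8%), with a median log2 change of −0.051. The cholesterol exporter Abcg1 rose by 0.57 log2 units (adjusted p = 0.00551), the lipid droplet protein Plin2 by 0.40 (adjusted p = 0.0186) and the fatty acid binding protein Fabp5 by 1.44 (adjusted p = 0.00195). Abca9, a transporter of the ABCA family (chromosome 11 from 110100749 to 110168274), fell. In untreated mice Abca9 stood at 467, 426 and 586 CPM in LYVE1+CX3CR1+, 487, 491 and 522 CPM in MHCII+CD11c- cells and 456, 484 and 445 CPM in MHCII+CD11c+ cells. After IC Abca9 stood at 316, 289.9 and 314 CPM, 288, 294 and 247 CPM and 302, 259 and 269 CPM in the same order. Every IC library lay below every untreated library (log2 fold change −0.76, SE 0.087, adjusted p = 2.64e-07). The phospholipid transfer protein gene Pltp was called lower at a log2 change of −0.46 (adjusted p = 0.0425), and that call was lost in 15 of the 18 fits without 1 library.

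Interferon-stimulated genes (ISGs) were called mostly higher. Of 72 tested, 24 were called higher and 2 lower (36.1%), 61 had a fitted change above 0 and the median log2 change was 0.41. Irf7, the transcription factor that amplifies the type I interferon response, ranged from 15.5 to 71.5 CPM (median 55.8) in the 9 untreated libraries and from 32.7 to 214 CPM (median 130.2) in the 9 IC libraries (log2 fold change 1.12, SE 0.19, adjusted p = 0.000289), with changes of 0.53, 1.34 and 1.42 in LYVE1+CX3CR1+, MHCII+CD11c- and MHCII+CD11c+ macrophages. Isg15, a ubiquitin-like modifier, ranged from 1.35 to 18.3 CPM (median 12.5) in the 9 untreated libraries and from 6.24 to 60.2 CPM (median 32) in the 9 IC libraries (log2 fold change 1.29, SE 0.26, adjusted p = 0.00142). Rsad2, which encodes the antiviral enzyme viperin, changed by 0.062, 1.96 and 1.89 in the same order of subsets (log2 fold change 1.29, SE 0.28, adjusted p = 0.00494 over the subsets). In each of these 3 genes the libraries of LYVE1+CX3CR1+ macrophages overlapped and those of both MHCII+ subsets did not. A difference of the response among the subsets was not called for any ISG. Slfn4, a schlafen gene of myeloid cells, rose from a median of 3.06 CPM (0 to 5.79 over 9 libraries) to 31.7 CPM (0 to 102) (log2 fold change 2.93, SE 0.45, adjusted p = 4.3e-05) and was at or below the 3-count floor in the untreated LYVE1+CX3CR1+ libraries. The membrane gene Ifitm3 rose by 0.75 log2 units (adjusted p = 4.06e-05) without overlap in any subset. The classical ISG Ifit1 was not called (log2 fold change 0.63, adjusted p = 0.269). Irf1 and Gbp3, which respond mainly to interferon γ, fell, with log2 fold changes of −0.56 (adjusted p = 0.000419) and −0.49 (adjusted p = 0.0476), and the call of Gbp3 was lost in 14 of the 18 fits.

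The interferon-stimulated response element, searched as GAAANNGAAA, was in the 250 bases before the start of 3.46% of all genes and of 26 of the 55 ISGs with a window. The share was alike in called and other members of the list, 9 of 19 and 17 of 36. Promoter stretches are printed for 4 called genes and, for comparison, for Ifit1, which was not called. They come from chr4:156200841-156200930, chr12:26456523-26456612, chr5:120907526-120907582 and chr1:174031840-174031929, all on the minus strand, and from chr19:34640755-34640843 on the plus strand. Capitals mark the element, which overlaps itself in Isg15 and Oas1a. Oas1a, an antiviral oligoadenylate synthetase, rose by 0.96 log2 units (adjusted p = 0.000419) and shares sequence with its paralog Oas1g. Ifi205, a nuclear DNA-binding ISG, rose by 1.17 log2 units (adjusted p = 0.000685).
Isg15: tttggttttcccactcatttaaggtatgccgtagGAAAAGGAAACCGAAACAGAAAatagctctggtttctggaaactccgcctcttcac
Rsad2: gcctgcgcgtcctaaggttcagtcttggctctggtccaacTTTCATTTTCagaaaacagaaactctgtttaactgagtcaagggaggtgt
Oas1a: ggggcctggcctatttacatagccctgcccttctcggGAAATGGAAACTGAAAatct
Ifi205: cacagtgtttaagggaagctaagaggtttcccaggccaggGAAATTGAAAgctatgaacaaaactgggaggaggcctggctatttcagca
Ifit1: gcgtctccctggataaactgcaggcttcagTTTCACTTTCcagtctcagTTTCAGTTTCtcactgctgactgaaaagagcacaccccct

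**Figure D3:**
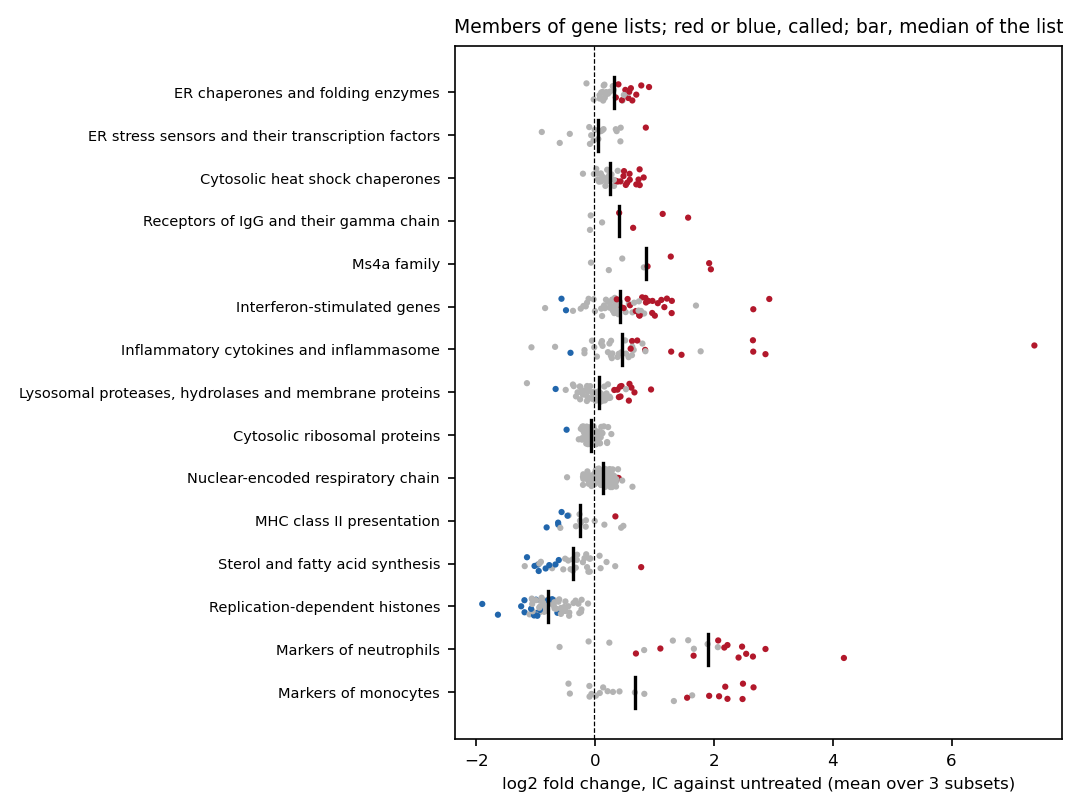
Log2 fold changes of IC against untreated (horizontal) for the tested members of 15 gene lists (rows). Points are genes, red when called higher, blue when called lower and grey otherwise, the black bar is the median of the list and the dashed line the median of all genes tested; the medians of chaperones and interferon-stimulated genes lie to its right, those of histones and sterol synthesis to its left, and that of ribosomal proteins near it.

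Inflammatory mediators were called in part. Of 39 inflammatory cytokine and inflammasome genes, 10 were higher and 1 lower (28.2%), with a median log2 change of 0.45. Irg1, the enzyme that makes itaconate in activated macrophages (chromosome 14 from 103047012 to 103056573, named Acod1 in RefSeq), had the largest log2 fold change among genes whose mean log2 CPM is 4 or more. In untreated mice Irg1 stood at 2.02, 1.25 and 5.38 CPM in LYVE1+CX3CR1+, 14, 7.33 and 27.6 CPM in MHCII+CD11c- cells and 12.1, 4.6 and 14 CPM in MHCII+CD11c+ cells. After IC Irg1 stood at 3.95, 12.7 and 19.7 CPM, 75.8, 45.2 and 159 CPM and 61.7, 92 and 105 CPM in the same order. The LYVE1+CX3CR1+ libraries overlapped and those of both MHCII+ subsets did not (log2 fold change 2.66, SE 0.32, adjusted p = 8.58e-06). Il1b, which encodes interleukin-1β, ranged from 15 to 401 CPM (median 159) in the 9 untreated libraries and from 42.7 to 707 CPM (median 457) in the 9 IC libraries. Within each subset its IC libraries lay above the untreated ones (log2 fold change 1.28, SE 0.27, adjusted p = 0.00918). Il1rn, the antagonist of the interleukin-1 receptor, also rose (log2 fold change 0.84, adjusted p = 0.00113), as did the mitochondrial superoxide dismutase gene Sod2 (log2 fold change 0.60, adjusted p = 0.00293). Saa3, an acute-phase apolipoprotein, had 0 counts in all 9 untreated libraries and up to 41.7 CPM after IC, at least 6.68-fold higher when the untreated level is taken as 3 counts per library. Tnf ranged from 74.1 to 230.4 CPM (median 162) in the 9 untreated libraries and from 117 to 329 CPM (median 206) in the 9 IC libraries and was not called (log2 fold change 0.45, adjusted p = 0.0675). Il6 was not called either (log2 fold change −0.67, adjusted p = 0.299). Socs3, a feedback inhibitor of cytokine signalling, was called lower (log2 fold change −0.41, adjusted p = 0.0493), but its fitted change in LYVE1+CX3CR1+ macrophages was 0.015, and the call was lost in 15 of the 18 fits without 1 library.

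A minority of chemokine genes were called, most of these higher. Of 17 CC chemokines and receptors, 4 were called higher and none lower (median log2 change 0.23), and of 13 CXC chemokines and receptors 5 were called higher and 1 lower (median log2 change 0.36). Ccl9, a monocyte attractant expressed by macrophages, went from a median of 985 CPM (537 to 1231 over 9 libraries) to 1451 CPM (982 to 2078) without overlap in any subset (log2 fold change 0.77, SE 0.11, adjusted p = 1.13e-05). Its neighbour Ccl6 rose by 0.93 log2 units (adjusted p = 0.00734), likewise without overlap. Cxcl2, a ligand of the neutrophil receptor CXCR2, ranged from 208 to 352 CPM (median 262) in the 9 untreated libraries and from 250.4 to 577 CPM (median 421) in the 9 IC libraries (log2 fold change 0.69, SE 0.12, adjusted p = 0.000419). Cxcl1, which binds the same receptor, was called at a log2 change of 1.10 (adjusted p = 0.033), and the call was lost in 10 of the 18 fits without 1 library. Cxcl13, the attractant of B cells, stood at 0 in all untreated MHCII+CD11c- libraries, and its rise there was at least 13.3-fold. In LYVE1+CX3CR1+ macrophages Cxcl13 stood at 0, 0 and 0 CPM before and 0, 0 and 0.48 CPM after IC, which overlapped. Cxcl12, a chemokine of stromal cells, fell from a median of 18.9 CPM (0.538 to 52.3 over 9 libraries) to 2.4 CPM (0 to 7.53) (log2 fold change −2.51, SE 0.46, adjusted p = 0.000419). In LYVE1+CX3CR1+ macrophages Cxcl12 had 1, 7 and 1 counts before and 0, 0 and 5 after IC, which overlapped near the floor. The groups were apart in MHCII+CD11c- (45, 37 and 31 counts to 0, 2 and 6) and MHCII+CD11c+ macrophages (36, 34 and 35 counts to 1, 6 and 4). The receptors Ccrl2 and Cxcr4 rose by 0.59 log2 units and 0.51 (adjusted p = 0.0286 and 0.00619).

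Transcripts typical of neutrophils moved with the treatment. Of 21 neutrophil markers tested, 12 were called higher and none lower (57.1%). Their median was 1.90, or 1.66 with genes at 3 counts or fewer in all 9 libraries of a treatment set to their bound. S100a8, a calcium-binding protein of neutrophils and monocytes, is an example of the unequal starting levels. In untreated mice S100a8 stood at 0, 0 and 0 CPM in LYVE1+CX3CR1+, 185, 88 and 113 CPM in MHCII+CD11c- cells and 87.7, 0.657 and 17.8 CPM in MHCII+CD11c+ cells. After IC S100a8 stood at 1.13, 18.5 and 0.48 CPM, 295, 313 and 603 CPM and 184, 259.5 and 415 CPM in the same order. The IC libraries lay above the untreated ones in each subset, yet each untreated MHCII+CD11c- library exceeded all LYVE1+CX3CR1+ libraries of IC mice (log2 fold change 2.42, SE 0.59, adjusted p = 0.0262). For S100a8 in LYVE1+CX3CR1+ macrophages the separation rested on 0, 0 and 0 counts before and 2, 35 and 1 counts after IC. Of the latter, 2 and 1 are below the floor of 3 counts. Leaving out 1 library ended the calls of S100a8 in 4, of S100a9 in 14 and of Lcn2 in 3 of 18 fits. Ngp and Ltf, granule proteins made by immature neutrophils, were not called at a log2 change of 1.66 and 1.90 (adjusted p = 0.237 and 0.148). The summed level of 24 neutrophil markers, leaving out Cxcl2, Slc2a3 and Trem1, which macrophages also express, was 20.2 to 26.9 CPM in untreated and 19.2 to 212 CPM in IC libraries of LYVE1+CX3CR1+ macrophages. In MHCII+CD11c- macrophages the same sum was 1021 to 2393 CPM and 1845 to 5525 CPM. In MHCII+CD11c+ macrophages it was 178 to 951 CPM and 1365 to 3073 CPM. The ranges overlapped in LYVE1+CX3CR1+ and MHCII+CD11c- and were apart in MHCII+CD11c+ macrophages. Of 27 neutrophil markers listed, Stfa1 alone was at 0 in all 9 untreated libraries. The part of neutrophil RNA in the rise of Il1b, Cxcl2, Trem1, Clec4e, Clec4d, Fcgr4, Slfn4, Il1r2 and Cxcr2, which neutrophils may also express, was not tested. Nor was its part tested in the rise of any other gene named here, such as Irg1, Lrg1, Bst1 or Fpr1.

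Monocyte markers showed a related pattern, with 8 of 23 called higher, none lower (34.8%) and a median log2 change of 0.67. Plac8, abundant in Ly6C-high monocytes, ranged from 0 to 60.5 CPM (median 11.2) in the 9 untreated libraries and from 0 to 316 CPM (median 71.9) in the 9 IC libraries (log2 fold change 2.48, SE 0.45, adjusted p = 0.00306). Ly6c2 itself and the haptoglobin gene Hp rose by 2.19 log2 units and 2.67 (adjusted p = 0.0071 and 0.000222). In contrast, the summed level of the 23 markers overlapped between treatments in both MHCII+ subsets, at 4477 to 9049 CPM and 3780 to 10600 CPM in MHCII+CD11c- macrophages and 8886 to 11790 CPM and 8902 to 10750 CPM in MHCII+CD11c+ macrophages. In LYVE1+CX3CR1+ macrophages it was 5590 to 7364 CPM and 7871 to 9462 CPM, without overlap. In the libraries of that subset Ly6c2, Plac8 and Hp had at most 5, 11 and 7 counts, so its sum came mostly from other members. Vcan, also on the list, had 696 to 1167 counts there. Macrophage expression of list members was not removed from these sums, and its part in them was not tested. Ms4a4c, counted above with the Ms4a family, and Cd177 belong to this list as well, and 0 of the 23 markers were at 0 throughout either treatment. A gate against Ly6C, the surface protein that marks Ly6C-high monocytes, is given for the LYVE1+CX3CR1+ cells and for neither MHCII+ subset.

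**Figure D4:**
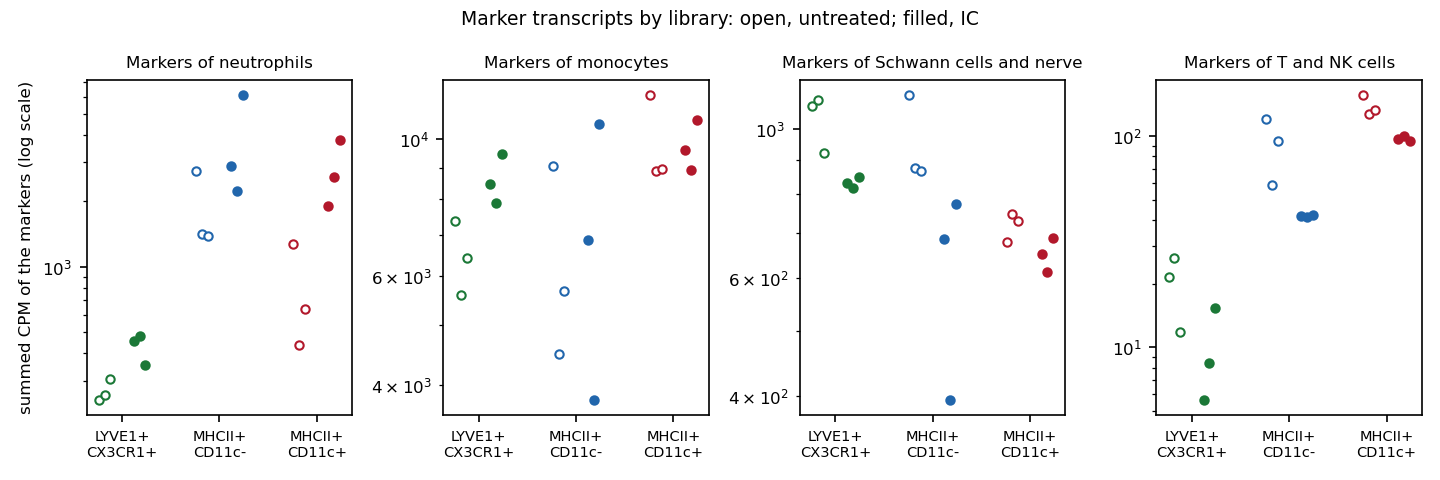
Summed CPM of marker genes (vertical, log scale) of neutrophils, monocytes, Schwann cells and nerve, and T and NK cells in each library by subset (horizontal); open circles are untreated and filled circles IC. Within each treatment neutrophil transcripts are lowest in LYVE1+CX3CR1+ libraries, and the median sums of Schwann cell and of T and NK cell markers are lower after IC in each subset, with Schwann sums of 919.6 to 1105 CPM and 818 to 847 CPM in untreated and IC LYVE1+CX3CR1+ libraries.

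Markers of other tissue cells were called in small numbers, in part downward. Of 10 Schwann cell and nerve markers, 3 were called lower, among them the myelin genes Prx and Mbp. Mbp ranged from 39.8 to 142 CPM (median 98.8) in the 9 untreated libraries and from 14.1 to 88.1 CPM (median 43.1) in the 9 IC libraries and did not overlap within any subset (log2 fold change −1.10, SE 0.21, adjusted p = 0.0016). The median of the list was −0.56, and its summed level was 866 to 1122 CPM and 395 to 774 CPM in untreated and IC MHCII+CD11c- macrophages and 678 to 748 CPM and 614 to 689 CPM in MHCII+CD11c+ macrophages. Of 3 T and NK cell markers tested, Cd2 was called lower (log2 fold change −1.06, adjusted p = 0.00501). The summed level of the 21 markers on that list was at most 156 CPM in any library, and Cd3e, Cd3g, Gzma and Il2rb were at 0 in all 18. Among 11 B and plasma cell markers, Sdc1 was called lower (log2 fold change −1.58, adjusted p = 0.00208). Among 11 mast cell and basophil markers Il1rl1 was called lower (−0.92) and Hdc higher (2.07). Of these 11, 10 had a fitted change above 0, and their median log2 change was 1.17. The summed level of that list overlapped between treatments in each subset. It was 53.8 to 269 CPM and 264 to 674 CPM in untreated and IC MHCII+CD11c- macrophages. In MHCII+CD11c+ macrophages it was 124 to 207 CPM and 159 to 392 CPM. None of 8 fibroblast, 7 endothelial and mural, 6 muscle and 7 erythroid and platelet markers was called, with median log2 changes of −0.75, −0.046, −0.91 and −3.27. Of 17 dendritic cell markers Cd209a was called, and of 5 markers of cartilage, bone and adipocytes Acp5, an osteoclast and macrophage phosphatase (log2 fold change 0.94, adjusted p = 0.0295), with a median log2 change of 0.035 and 0.036. The part of these cells in the changes was not tested.

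Transcripts of replication-dependent histones were lower after IC. Such genes are expressed mainly in S phase, and most of their transcripts carry no poly(A) tail. All 63 histone genes tested had a fitted change below 0, 15 were called lower (23.8%), and the median log2 change was −0.79. The summed level was 1865 to 3029 CPM in untreated and 1661 to 2012 CPM in IC LYVE1+CX3CR1+ libraries, which overlapped. It overlapped in MHCII+CD11c- macrophages too, at 3052 to 8196 CPM and 2696 to 4820 CPM. In MHCII+CD11c+ macrophages the ranges were apart, at 7214 to 10670 CPM and 2744 to 6134 CPM. Of the 63 genes, 1 was lower without overlap in each of the 3 subsets. That gene, the histone H4 gene Hist1h4b, ranged from 12.4 to 76.2 CPM (median 22) in the 9 untreated libraries and from 3.36 to 20.7 CPM (median 8.01) in the 9 IC libraries (log2 fold change −1.63, SE 0.24, adjusted p = 2.22e-05). Hist1h1b, a linker histone, ranged from 11.5 to 131 CPM (median 32.7) in the 9 untreated libraries and from 5.64 to 52.7 CPM (median 18.8) in the 9 IC libraries (log2 fold change −1.24, SE 0.35, adjusted p = 0.0386), and its call was lost in 11 of the 18 fits without 1 library. Histone genes of 1 type are near-identical, so the 63 values are not separate measurements. In contrast, 1 of 47 cell cycle and DNA replication genes was called, the kinesin Kif23 (log2 fold change −0.84, adjusted p = 0.0418), and their median was −0.036.

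Malat1 and Neat1, both long nuclear RNAs, fell as well. Malat1, a nuclear-retained long non-coding RNA (chromosome 19 from 5795690 to 5802672), was lower on average in each subset. In untreated mice Malat1 stood at 10733, 11460.4 and 13448 CPM in LYVE1+CX3CR1+, 11551, 13547 and 12752 CPM in MHCII+CD11c- cells and 7282, 9723 and 9393 CPM in MHCII+CD11c+ cells. After IC Malat1 stood at 3597, 4418 and 4740.3 CPM, 5452, 12644 and 5449.8 CPM and 5123, 4983 and 5784 CPM in the same order. The groups overlapped in MHCII+CD11c- macrophages and were apart in the others (log2 fold change −0.97, SE 0.17, adjusted p = 0.00241). Neat1, the scaffold of paraspeckles, ranged from 277 to 554 CPM (median 439) in the 9 untreated libraries and from 118 to 527 CPM (median 217) in the 9 IC libraries (log2 fold change −0.96, SE 0.18, adjusted p = 0.00287). Of 13 nuclear-retained and structural RNAs these were the 2 called, and the median log2 change was −0.29. The small RNA gene Rn4.5s ranged from 18.9 to 46.5 CPM (median 24.5) in the 9 untreated libraries and from 5.01 to 19.5 CPM (median 13.1) in the 9 IC libraries (log2 fold change −1.12, SE 0.27, adjusted p = 0.00727). The libraries were made from total RNA, and the share of nuclear RNA in each library was not tested.

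Some class II antigen presentation genes were called lower over the subsets. Of 18 class II presentation genes, 5 were called lower and 1 higher (33.3%), with a median log2 change of −0.26. The summed level of the list differed in direction among the subsets. It was 3423 to 3594 CPM in untreated and 3753 to 3898 CPM in IC LYVE1+CX3CR1+ libraries, a rise without overlap. In MHCII+CD11c- macrophages it fell without overlap, with 22250 to 23670 CPM before and 9462 to 16690 CPM after IC. In MHCII+CD11c+ macrophages the ranges overlapped, at 30180 to 35400 CPM and 25430 to 30550 CPM. H2-DMa, which loads peptides onto class II molecules, ranged from 14 to 562 CPM (median 255) in the 9 untreated libraries and from 5.27 to 386 CPM (median 132) in the 9 IC libraries (log2 fold change −0.81, SE 0.13, adjusted p = 7.22e-05). Its partners H2-DMb1 and H2-DMb2 fell too (−0.56 and −0.62, adjusted p = 0.00258 and 0.0141). The surface chains H2-Eb1 and H2-Aa were called lower at a log2 change of −0.62 and −0.46 (adjusted p = 0.019 and 0.0216). For H2-Aa the LYVE1+CX3CR1+ libraries, where the level is low, went the other way (0.98), and the call was lost in 4 of the 18 fits without 1 library. The lysosomal reductase gene Ifi30 was called higher (log2 fold change 0.34, adjusted p = 0.0225), a call lost in 8 of these fits. The class II transactivator Ciita was not called (log2 fold change −0.44, adjusted p = 0.109). Of 20 class I presentation genes 2 were called, both lower, with a median log2 change of 0.011. These are the nonclassical genes H2-Q6, which ranged from 15.7 to 123 CPM (median 48.9) in the 9 untreated libraries and from 5.23 to 34 CPM (median 13.4) in the 9 IC libraries and did not overlap in any subset (log2 fold change −1.69, SE 0.24, adjusted p = 9.35e-06), and H2-Q7 (log2 fold change −0.80, adjusted p = 0.00276). H2-Q8 had the same counts as H2-Q6 in every library, and H2-Q9 the same as H2-Q7, so that each pair is 1 measurement and its gene of origin is uncertain.

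Genes of resident macrophages moved both ways, 4 called higher and 4 lower of 31 tested (25.8%), with a median log2 change of −0.025. Sepp1, which encodes selenoprotein P, ranged from 3046 to 5380.1 CPM (median 4532) in the 9 untreated libraries and from 1876 to 3505 CPM (median 3119) in the 9 IC libraries and fell without overlap in any subset (log2 fold change −0.59, SE 0.079, adjusted p = 4.39e-06). Its annotation overlaps Ccdc152. Hpgd, the enzyme that inactivates prostaglandins, fell by 0.75 log2 units (adjusted p = 4.41e-05) with the same separation. The growth factor gene Igf1 was called lower (log2 fold change −0.48, adjusted p = 0.0437), a call lost in 14 of the 18 fits without 1 library. Lyve1, the hyaluronan receptor used for sorting, rose by 0.99 log2 units (adjusted p = 0.016). It stood at 2372 ± 197 and 3315 ± 209 CPM (SD, n = 3) in untreated and IC LYVE1+CX3CR1+ macrophages, 796 ± 90.02 and 1549 ± 923 in MHCII+CD11c- cells and 378 ± 56.2 and 1096 ± 121 in MHCII+CD11c+ cells. Trem2, a lipid-sensing receptor, rose by 0.58 log2 units (adjusted p = 0.00494).

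The largest falls among well-measured genes included several outside these lists. Mamdc2, which encodes a secreted protein with MAM domains (chromosome 19 from 23302609 to 23448497), is an example. In untreated mice Mamdc2 stood at 102, 151 and 146 CPM in LYVE1+CX3CR1+, 81.4, 152 and 135 CPM in MHCII+CD11c- cells and 97.2, 148 and 139 CPM in MHCII+CD11c+ cells. After IC Mamdc2 stood at 47.4, 41.1 and 52.8 CPM, 28.8, 15.1 and 56.1 CPM and 55.5, 45.6 and 83.5 CPM in the same order. The IC libraries lay below the untreated ones in each subset (log2 fold change −1.37, SE 0.17, adjusted p = 1.4e-06). Igfbp4, a binding protein of insulin-like growth factors, fell from a median of 249.8 CPM (107 to 440.1 over 9 libraries) to 91.7 CPM (53 to 178) with the same separation (log2 fold change −1.16, SE 0.16, adjusted p = 5.13e-05). Ptgs1, the constitutive cyclooxygenase, fell from a median of 42.9 CPM (7 to 123 over 9 libraries) to 10.5 CPM (0.564 to 44.7) (log2 fold change −1.56, SE 0.30, adjusted p = 0.000965). Prkar2b, a regulatory subunit of protein kinase A, fell from a median of 60.3 CPM (33.7 to 107 over 9 libraries) to 27.6 CPM (2.61 to 39.9) (log2 fold change −1.23, SE 0.22, adjusted p = 0.000405). Among genes singled out after their values were seen, the transcriptional repressor Etv3, the membrane-bending protein Fnbp1 and the adaptor Kctd12 fell without overlap in any subset, with log2 fold changes of −0.90, −0.87 and −0.63. In the same way Bst1, an ADP-ribosyl cyclase of the cell surface, the syndecan Sdc4 and the secreted protein Wfdc17 rose by 1.44 log2 units, 0.83 and 1.10. Ly6i, a surface antigen of the Ly6 family, and Ly6a, which encodes Sca-1, ranged up to 1.58 and 6.75 CPM before and up to 26.1 and 39.2 CPM after IC, without overlap in any subset. For Ly6a in LYVE1+CX3CR1+ macrophages this rested on 0, 1 and 1 counts before and 2, 6 and 8 counts after IC. Lrg1, a secreted glycoprotein of the acute phase, stood at 0.525, 0 and 0.482 CPM in the untreated and 18.5, 59 and 43.9 CPM in the IC libraries of MHCII+CD11c+ macrophages, the former from at most 1 count a library.

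**Figure D5:**
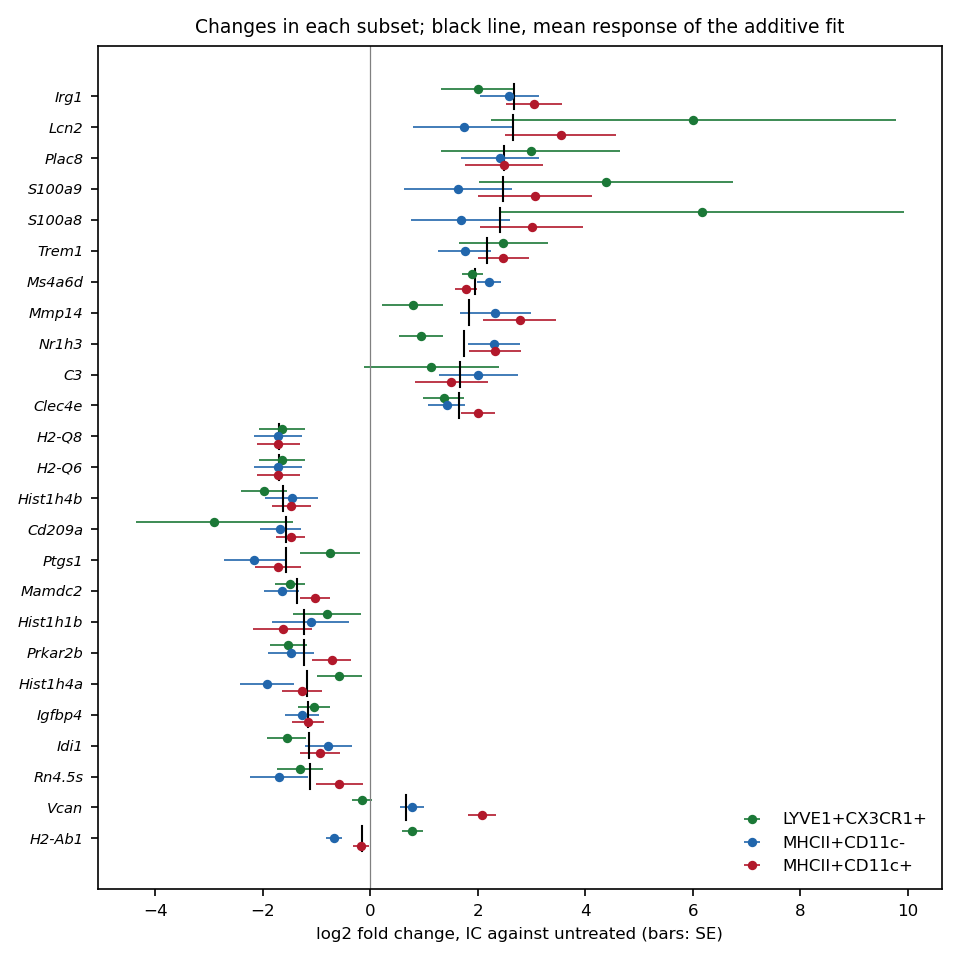
Log2 fold changes of IC against untreated in each subset (coloured points, with SE as bars; fit with 6 groups) and in the additive fit (black line) for 23 of the 24 genes with the largest common changes and for Vcan and H2-Ab1. For the 23 the 3 subsets lie on the same side of 0, as the rule that chose them requires, whereas Vcan and H2-Ab1 spread from −0.16 to 2.08 and from −0.68 to 0.77.

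Several further groups were called in small numbers. Of 61 lysosomal genes, 11 were called higher and 1 lower (19.7%), with a median log2 change of 0.074. The protease gene Ctsl rose by 0.61 log2 units (adjusted p = 0.000115) and the tetraspanin gene Cd63 by 0.57 (adjusted p = 0.000685), both without overlap in any subset, and the sulfatase gene Sgsh fell by 0.66 log2 units (adjusted p = 0.0104). Of 26 genes of oxidative stress and metallothioneins, 7 were called higher and 1 lower, with a median log2 change of 0.19, among them thioredoxin, Txn1, at a log2 change of 0.65 (adjusted p = 0.00208) and heme oxygenase, Hmox1, at a log2 change of 0.38 (adjusted p = 0.0198). Of 20 complement genes, 4 were called higher and 1 lower, with a median log2 change of 0.20. C3, the central component, was called at a log2 change of 1.66 (adjusted p = 0.0384), a call lost in 12 of the 18 fits without 1 library, and the properdin gene Cfp fell by 0.71 log2 units (adjusted p = 0.00244). Integrin, adhesion and motility genes gave 6 higher and 5 lower of 40, with a median log2 change of 0.20. Of these, the membrane metalloprotease gene Mmp14 lay higher in all 9 IC libraries than in any untreated one (log2 fold change 1.84, SE 0.42, adjusted p = 0.016), Mmp19 rose by 1.15 log2 units (adjusted p = 0.000131) and the semaphorin gene Sema4a fell by 0.77 log2 units (adjusted p = 4.3e-05). Of 39 actin genes 4 were called, all higher, with a median log2 change of 0.10. Of 30 genes of glycolysis and hypoxia, Pkm was called higher (log2 fold change 0.56, adjusted p = 0.000289) and Pfkp lower (log2 fold change −0.53, adjusted p = 0.00909), with a median log2 change of 0.24.

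Few members of large housekeeping groups were called. Of 81 cytosolic ribosomal proteins, Rps14 alone was called (log2 fold change −0.48, adjusted p = 0.00573), with a median log2 change of −0.071. Of 75 nuclear-encoded respiratory chain genes, Cox5b alone was called (log2 fold change 0.40, adjusted p = 0.0452), with a median log2 change of 0.14. Of 46 proteasome subunits, Psmc1 alone was called (log2 fold change 0.65, adjusted p = 0.00103), with a median log2 change of 0.23 and 40 of the 46 fitted above 0. The summed level of the proteasome list was 2760 to 3037 CPM and 3210 to 3622 CPM in untreated and IC LYVE1+CX3CR1+, 2761 to 3049 CPM and 3173 to 3863 CPM in MHCII+CD11c- and 3327 to 3754 CPM and 3699 to 4246 CPM in MHCII+CD11c+ cells, and the ranges were apart in all but the last.

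Some genes that respond to hormones or belong to the clock were called at 8 h. Of 28 genes that respond to glucocorticoids, 6 were called higher and none lower (21.4%), with a median log2 change of 0.21. Fkbp5, a co-chaperone of the glucocorticoid receptor, ranged from 9.19 to 50.6 CPM (median 19.6) in the 9 untreated libraries and from 22.6 to 76.1 CPM (median 54.8) in the 9 IC libraries (log2 fold change 1.15, SE 0.26, adjusted p = 0.00541). With the presumed pool as a random block its adjusted p was 0.0771 and the call was lost. The kinase gene Sgk1 rose by 0.65 log2 units (adjusted p = 0.00541). Of 17 circadian clock genes, 2 were called higher and 1 lower, with a median log2 change of −0.12. Nr1d1, which encodes the repressor REV-ERBα, ranged from 10.5 to 78.4 CPM (median 24.6) in the 9 untreated libraries and from 0 to 20.03 CPM (median 8.64) in the 9 IC libraries (log2 fold change −1.96, SE 0.36, adjusted p = 0.00139), and its annotation overlaps that of Thra. Per2, a repressor of the clock, ranged from 14.7 to 44.2 CPM (median 30.7) in the 9 untreated libraries and from 29.2 to 81.7 CPM (median 59) in the 9 IC libraries (log2 fold change 0.88, SE 0.18, adjusted p = 0.00142), and the output factor gene Tef rose by 0.63 log2 units (adjusted p = 0.018). The time of day at which each group was collected is not given in the sources used here, so that the IC and the time of collection cannot be told apart for these genes. Of 33 immediate early genes, which respond within minutes to dissociation and sorting, 4 were called, all lower, with a median log2 change of −0.086. Btg2, an antiproliferative member, fell by 0.68 log2 units (adjusted p = 3.56e-06) without overlap in any subset.

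A difference of the response among the subsets was called for 2 genes of 10550 (0.019%), and 577 genes had an unadjusted p under 0.05 in that test. Vcan encodes the matrix proteoglycan versican. In untreated mice Vcan stood at 469, 501 and 582 CPM in LYVE1+CX3CR1+, 67.4, 77 and 99.1 CPM in MHCII+CD11c- cells and 11, 11.8 and 13 CPM in MHCII+CD11c+ cells. After IC Vcan stood at 435, 396 and 560.4 CPM, 118, 90.4 and 186 CPM and 43.2, 45.6 and 60.9 CPM in the same order. The groups overlapped in LYVE1+CX3CR1+ and MHCII+CD11c- macrophages and were apart in MHCII+CD11c+ macrophages, where the log2 fold change was 2.08, against 0.77 and −0.16 in MHCII+CD11c- and LYVE1+CX3CR1+ macrophages (adjusted p of the difference = 0.00342). H2-Ab1, the class II β chain of I-A, stood at 20.2 ± 0.202 and 34.6 ± 11.4 CPM (SD, n = 3) in untreated and IC LYVE1+CX3CR1+ macrophages, 4626 ± 105 and 2895 ± 211 in MHCII+CD11c- cells and 7162 ± 609 and 6339 ± 734 in MHCII+CD11c+ cells (adjusted p of the difference = 0.0366). Neither had a common change that was called (log2 fold change 0.67, adjusted p = 0.179 for Vcan and log2 fold change −0.15, adjusted p = 0.694 for H2-Ab1). Within single subsets, 52 genes were called in LYVE1+CX3CR1+ (0.493%), 147 in MHCII+CD11c- cells (1.39%) and 73 in MHCII+CD11c+ cells (0.692%), and whether these counts differ was not tested.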

How the data were processed

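The 18 libraries were grouped by their titles. The authors prepared them with a stranded total RNA kit for low inputs, ran Trim Galore, HISAT2 (genome mm10) and featureCounts on the reads, and deposited counts per gene symbol that had not been normalized. The annotation, the strand setting and what was done with duplicates and with reads that fit several places are not given in the sources used here. A combined table with the same values was not used, 0 columns belonged to samples without a label, and mitochondrial genes and some other genes are not reported here.

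Of 24421 symbols, 17957 had a count and 10550 passed filterByExpr (minimum count 10, minimum total 15). TMM factors, CPM and log2 CPM (prior count 2) were computed from the deposited counts in edgeR 4.0.16 (R 4.3.3). The main test was edgeR's quasi-likelihood F test of treatment in the model with subset and treatment, with Benjamini-Hochberg adjustment over all genes tested and a threshold of 0.05. A fit with 6 groups gave the values of each subset and, as an F test, the difference of the response among subsets. The SE is the absolute log2 fold change divided by the square root of F. Intervals and floors (3 counts per library) cover counting error only. Between replicates the chi-square per gene was at least 3.42, above sampling noise. The tests were checked on simulated counts with known changes.

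The response described, the gene lists and the motifs were chosen with earlier results of these data known. Named genes were list members, the 12 largest changes in each direction among called genes with the same sign in the subsets and a mean log2 CPM of 4 or more, the genes called for a difference among subsets, and, chosen after their values were seen, Bst1, Lrg1, Wfdc17, Sdc4, Etv3, Fnbp1, Kctd12, Ly6i, Fpr1, Hepacam2 and members of lists that were not called. Promoters and coordinates are from RefSeq (GRCm38.p6), matched by symbol for 23204 symbols and by synonym for 1109.

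Same-numbered libraries of 1 treatment correlated weakly (r of deviations from group means −0.0455 to 0.132, median 0.036, 18 pairs). Libraries of 1 treatment with other numbers and of other subsets gave −0.130 to 0.078 (median −0.0247, 36 pairs). Same-numbered libraries of 1 subset in the other treatment gave −0.0268 to 0.0393, so the numbers were not taken to pair the samples across treatments. These weak correlations do not settle whether same-numbered libraries of 1 treatment share a pool. Alternatives were DESeq2 1.42.0 (Wald and likelihood ratio tests, size factors), limma 3.58.1 (voom, and means over the libraries of a presumed pool), sums over a pool, the pool or the replicate number as a block, no filter, at least 10 counts in every library, 1 surrogate variable from sva 3.50.0, the mean of the within-subset contrasts, without Rn45s, and leaving out each library, subset or pool. Leaving out both shallow libraries and fitting single genes to pool means were added after seeing the data.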

Additional observations from a re-analysis of the deposited data

Results flagged for a closer look

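Vcan and H2-Ab1 differed in their response to IC among the 3 subsets by the interaction test of the fit with 6 groups. Vcan passed with an adjusted p of 0.00342. Its log2 fold changes were −0.16 in LYVE1+CX3CR1+, 0.77 in MHCII+CD11c- cells and 2.08 in MHCII+CD11c+ cells. The call was lost in 2 of the 18 fits without 1 library, at an adjusted p of 0.0519 without the LYVE1+CX3CR1+ IC library 2 and 0.0559 without the MHCII+CD11c+ IC library 3. H2-Ab1 passed with an adjusted p of 0.0366, with log2 fold changes of 0.77, −0.68 and −0.18 in the same order, and lost the call in 13 of the 18 fits, where its adjusted p reached 0.276.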

How the results depend on the processing

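The 604 called genes (314 higher, 290 lower) became 880 with the Wald test of DESeq2 (439 lower), 609 with DESeq2's size factors in edgeR, 706 with limma-voom, 754 unfiltered, 527 with a minimum of 10 counts in each library, 664 from the mean of the within-subset contrasts, 792 with 1 surrogate variable, 660 with the pool as a random block and 797 from pool sums. The replicate number as a block gave 623 (322 higher, 301 lower), 577 of them shared with the 604. Means over presumed pools gave 11 (10 higher, 1 lower). Leaving out a subset gave 284 (163 and 121) without LYVE1+CX3CR1+, 214 (101 and 113) without MHCII+CD11c+ and 536 without MHCII+CD11c- libraries. Leaving out a presumed pool gave 283 (146 and 137) without Healthy 2, 320 (157 and 163) without Healthy 3, 349 (185 and 164) without IC 1 and 491 to 564 without the others. Fewer libraries enter these fits, and for other changes of a count the cause was not tested. Leaving out 1 library gave 486 to 746 called genes, 250 to 406 higher and 235 to 340 lower, the highest each time without the shallow MHCII+CD11c- IC library 2, and 180 to 251 called list members. The difference among subsets, 2 genes, became 4 with DESeq2's size factors, 12 with its likelihood ratio test, 21 unfiltered, 4 with that minimum, 4 with the replicate block, 7 with the pool as a block and 0 to 6 without 1 library. Fitted only to the 6 libraries of a subset, the called genes were 343 in LYVE1+CX3CR1+, 22 in MHCII+CD11c- cells and 218 in MHCII+CD11c+ cells. Of 229 called genes whose alternatives were computed one by one, none changed direction, 218 were no longer called from pool means, 44 from pool sums, 12 with the pool as a random block (among them Fkbp5, C3, Cct8, Fdft1, Hspe1, Kif23, Pltp, Prx and Socs3), 7 with the replicate block, 86, 62 and 122 without the LYVE1+CX3CR1+, MHCII+CD11c- and MHCII+CD11c+ subset, and 8 to 38 without 1 library. Of genes not called, H2-Ab1 without MHCII+CD11c- libraries (0.15), Xbp1 without LYVE1+CX3CR1+ libraries (−0.0088) and Fcgr3 without MHCII+CD11c- libraries (0.0145) changed the sign of their log2 fold change. Low depth in 2 MHCII+CD11c- IC libraries limits what is detectable for genes with few counts there.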
